A study of Mus musculus with 9 samples.

Results

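The genes described here make up the core m6A machinery: 4 writers (Mettl3, Mettl14, Wtap and 1110037F02Rik, the table's name for Virma), 4 YTH readers (Ythdf1, Ythdf2, Ythdf3 and Ythdc1) and 2 erasers (Alkbh5 and Fto). They were taken by name from the deposited gene table, which lists 20715 named genes, 17559 of them with values. All 10 were found, and all 10 were among the 11460 genes that reached at least 1 FPKM in at least 3 libraries and were tested. FPKM corrects a gene's fragments for the length of its transcript and the size of the library, so levels can be set side by side between genes.

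RNA was sequenced from primary peritubular myoid cells, the contractile cells around the seminiferous tubules, isolated from testes of C57BL/6J mice and cultured at 37 °C in medium with fetal bovine serum. Control cells (3 libraries) were not heated. Heated cells spent 30 min in a water bath at 42 °C and were collected after 1 h (3 libraries) or 6 h (3 libraries). The labels number the libraries of each group without stating whether they came from separate mice or cultures, so a p-value here reflects variation from library to library that could be technical.

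N6-methyladenosine, or m6A, is the most common internal modification of messenger RNA in mammals. METTL3 is the catalytic methyltransferase, METTL14 is its RNA-binding partner, WTAP holds the pair in the nucleus, and VIRMA is a large scaffold of the same complex. The YTHDF proteins bind methylated RNA in the cytoplasm and YTHDC1 binds it in the nucleus, while ALKBH5 and FTO remove methyl groups. In mice, Alkbh5 and several writers and readers are needed for the formation of germ cells. In other cell types, heat shock has been reported to move YTHDF2 into the nucleus and to raise m6A on heat-shock messages. No RNA methylation was measured in the data used here, only the transcripts of the genes.

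Of 3 heat-shock genes checked, Hspa1a and Dnajb1 passed the test 1 h after heat. Hspa1a, an HSP70 chaperone gene, had 1228, 1794 and 1513 FPKM 1 h after heat, against 10.2, 12.3 and 6.92 FPKM in control libraries. That difference was 7.14 on the log2 scale (limma on log2(FPKM + 1), Benjamini-Hochberg adjusted p = 3.652e-06 over all genes tested). The log2 difference was 4.49 for the co-chaperone gene Dnajb1 (limma adjusted p = 1.514e-05) and 4.03 for Hsph1 (limma adjusted p = 0.1321). Estimated depth was close to even, at 18600000 to 19550000 reads per library. The summed FPKM of 7 myoid markers was 3116 to 4608 in all libraries, with Acta2, Tagln and Tpm2 the highest of them. The other myoid markers varied more for their level. Over the libraries Myh11 ran from 8.41 to 48.8 FPKM and Des from 11.0 to 63.7 FPKM. Cnn1 ran from 18.4 to 119 FPKM and Actg2 from 41.4 to 216 FPKM. The sum therefore does not show that each myoid marker was even across libraries. Leydig markers summed to 872 to 2138 FPKM, although 3 of the 7 (Cyp17a1, Hsd17b3 and Lhcgr) never exceeded 0.27 FPKM. Sums were lower for macrophage markers, at 30.5 to 249 FPKM, and for endothelial markers, at 28.3 to 83.6 FPKM. Germ-cell markers summed to 1.08 to 8.12 FPKM and red-cell markers to 0.03 to 7.08 FPKM. Sertoli markers summed to 247 to 536 FPKM in 8 libraries and to 3100 FPKM in control replicate 3.

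The 10 transcripts were at moderate levels. In control cells Wtap was highest at 27.1 ± 3.68 FPKM, followed by Alkbh5 at 22.7 ± 1.95 FPKM, Ythdf1 at 22.6 ± 1.06 FPKM, Ythdc1 at 20.9 ± 0.875 FPKM, Ythdf3 at 20.8 ± 2.95 FPKM and Fto at 20.5 ± 1.09 FPKM (SD, n = 3). Ythdf2 followed at 13.8 ± 0.487 FPKM, 1110037F02Rik at 10.8 ± 1.52 FPKM, Mettl3 at 9.25 ± 0.961 FPKM and Mettl14 at 6.20 ± 0.449 FPKM. The ranges of neighbours in that order overlapped except at 4 places: Ythdf1 stood just above Ythdc1, Fto above Ythdf2, Ythdf2 above 1110037F02Rik, and Mettl3 above Mettl14. Mettl14 was the lowest of the 10 in all 9 libraries, and Mettl3 ranked between 7 and 9. The top of the order varied: Alkbh5 led in 4 libraries, including all 3 collected at 1 h, Wtap led in 3, and Ythdf1 and Fto led in 1 each.

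**Figure D1:**
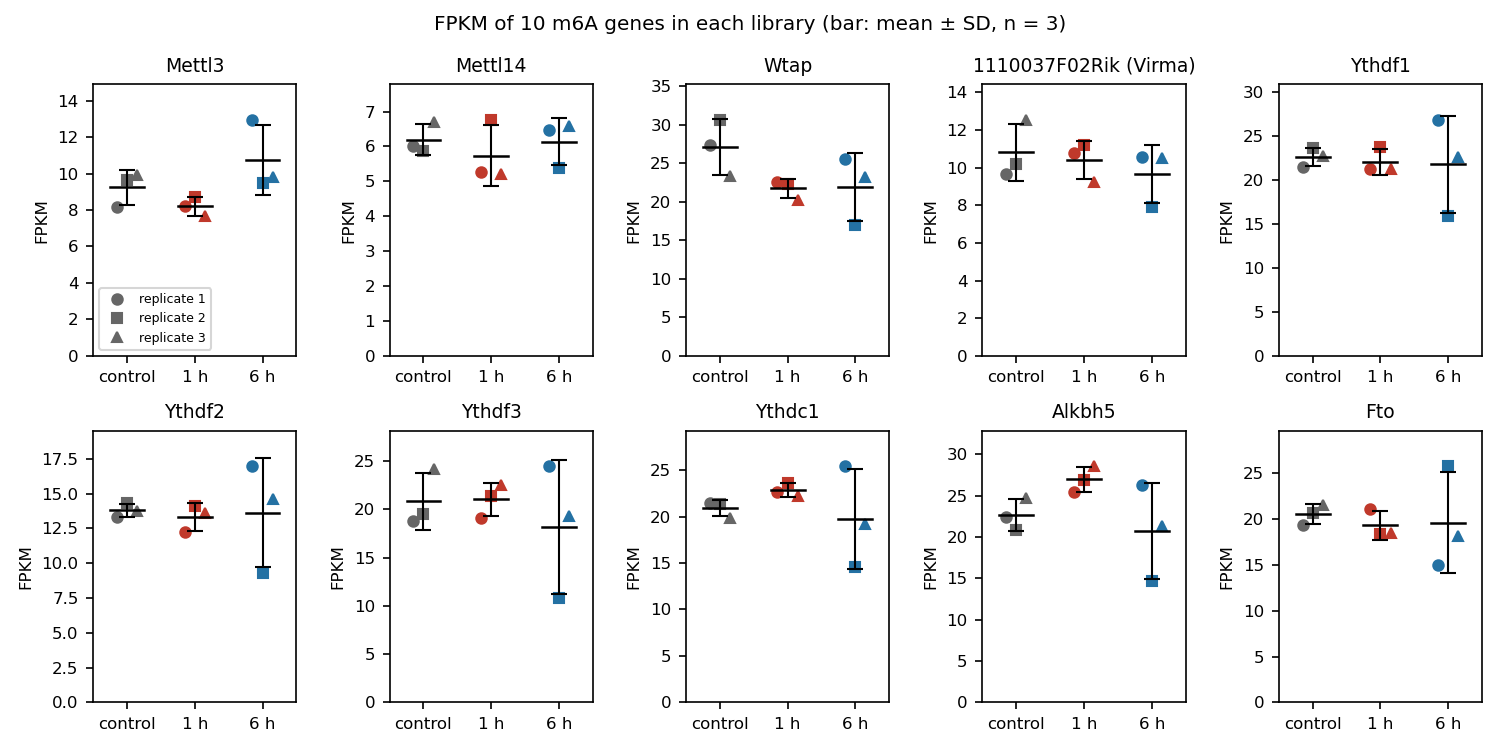
FPKM of the 10 m6A genes in each of 9 libraries, with control, 1 h and 6 h groups from left to right. Points are libraries, with a marker shape for each replicate number, and bars give the mean ± SD of 3 libraries. The 6 h libraries spread more widely than the 1 h libraries for every gene except Mettl14, whose 1 h values run from 5.20 to 6.76 FPKM.

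Each library held enough reads of these genes for counting error to be small. From the depth estimate, the expected number of reads lay between 255 for Mettl14 and 3220 for Alkbh5, which gives a counting coefficient of variation of at most 6.27%. This covers counting error only, since duplicate reads are not independent molecules.

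By the table's mm10 coordinates and the GENCODE annotation, 6 of the genes overlap no other gene. These are Mettl14 (chr3:123368295-123385990, minus strand), Wtap (chr17:12966799-12992539, minus strand), Ythdf1 (chr2:180904377-180920936, minus strand), Ythdf2 (chr4:132184916-132212256, minus strand), Ythdf3 (chr3:16183183-16217037, plus strand) and Alkbh5 (chr11:60537683-60558512, plus strand). 1110037F02Rik (chr4:11485958-11551143, plus strand) has an antisense gene in its span, Gm11831, with 0 shared exon bases in GENCODE. For the other 3 genes some reads may belong to neighbours. Mettl3 (mm10 chr14:52294841-52305124, minus strand) shares 933 of its 5076 annotated exon bases with Tox4 on the opposite strand. Fto (chr8:91313525-91668433, plus strand) shares 304 with Gm45427 and 144 with 4831440D22Rik, both on the opposite strand, of 13031 exon bases. Ythdc1 (chr5:86804490-86836657, plus strand) shares 631 of 13651 exon bases with Gm43055 on its own strand. The strand setting of the libraries is not given in the sources used here, so reads of these shared stretches cannot be told apart.

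Upstream sequences of 3 m6A genes are shown because these genes had the clearest group differences described below, with Hspa1a as the heat-induced gene to read them against. RefSeq windows on GRCm38.p6, from 250 bases before to 50 bases after the start site, matched 7 of the 10 genes in 9 windows; Mettl14, 1110037F02Rik and Ythdf3 are named only. Each window was searched for 2 facing units of the heat-shock element, written GAANNTTC and TTCNNGAA. Each pattern is its own reverse complement, so both strands are covered. The 250 bases before the start site follow, 5′ to 3′ on the gene's strand, with the motif in capitals.
Mettl3, chr14:52305125-52305374, minus strand: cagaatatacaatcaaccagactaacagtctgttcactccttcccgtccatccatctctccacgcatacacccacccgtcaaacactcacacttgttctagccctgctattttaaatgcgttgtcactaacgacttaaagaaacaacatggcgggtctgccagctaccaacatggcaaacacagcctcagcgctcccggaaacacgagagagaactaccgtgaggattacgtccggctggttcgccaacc
Wtap, chr17:12992540-12992789, minus strand: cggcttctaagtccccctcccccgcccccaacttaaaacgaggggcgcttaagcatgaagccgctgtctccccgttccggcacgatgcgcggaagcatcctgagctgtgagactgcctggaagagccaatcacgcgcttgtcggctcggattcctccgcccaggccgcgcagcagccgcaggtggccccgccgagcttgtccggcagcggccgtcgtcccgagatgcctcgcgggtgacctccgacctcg
Alkbh5, chr11:60537433-60537682, plus strand: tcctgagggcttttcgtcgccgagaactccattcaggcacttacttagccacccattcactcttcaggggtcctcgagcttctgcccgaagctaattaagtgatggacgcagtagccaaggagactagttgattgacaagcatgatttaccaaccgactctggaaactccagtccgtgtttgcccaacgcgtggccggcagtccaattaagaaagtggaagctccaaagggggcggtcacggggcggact
Hspa1a, chr17:34972157-34972406, minus strand: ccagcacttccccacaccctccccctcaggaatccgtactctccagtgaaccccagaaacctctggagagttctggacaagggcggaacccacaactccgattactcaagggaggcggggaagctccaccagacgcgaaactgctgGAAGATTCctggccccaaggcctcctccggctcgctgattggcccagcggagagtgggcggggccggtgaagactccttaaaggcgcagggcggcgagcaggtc
None of the 9 m6A windows held either pattern, while Hspa1a held 1 match at position -104 from the start site. Across all 32851 mouse windows 4946 held a match, which is 15.1%. Hsph1, another heat-shock gene, held 3 matches in each of its windows, and Dnajb1, which was also heat-induced, held none. The absence of a match says only that these letters are not in these windows.

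None of the 10 m6A transcripts passed the test at 1 h or 6 h. Against control, limma called 0 of 10 at 1 h, where 0.157% of all 11460 genes were called. It called 0 of 10 at 6 h, where 0.0% were called, and 0 of 10 for 6 h against 1 h, where 0.279% were called. At 6 h against control it also did not call Hspa1a, with means of 38.9 FPKM at 6 h and 9.81 FPKM in control. That log2 difference was 1.88, without overlap between the groups (limma adjusted p = 0.5213). At an unadjusted p below 0.05 the number of m6A genes was also 0 in all 3 comparisons and both directions. Among all genes that share was 2.76% higher and 8.05% lower at 1 h against control, 1.27% higher and 3.35% lower at 6 h against control, and 8.45% higher and 3.19% lower at 6 h against 1 h. A p above the threshold does not show equal levels, so the intervals matter. Over the 10 genes the 95% intervals reached from -0.69 to 0.68 at 1 h against control, from -0.83 to 0.55 at 6 h against control and from -0.85 to 0.70 at 6 h against 1 h (log2, limma). No interval reached a log2 difference of 1 in either direction.

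**Figure D2:**
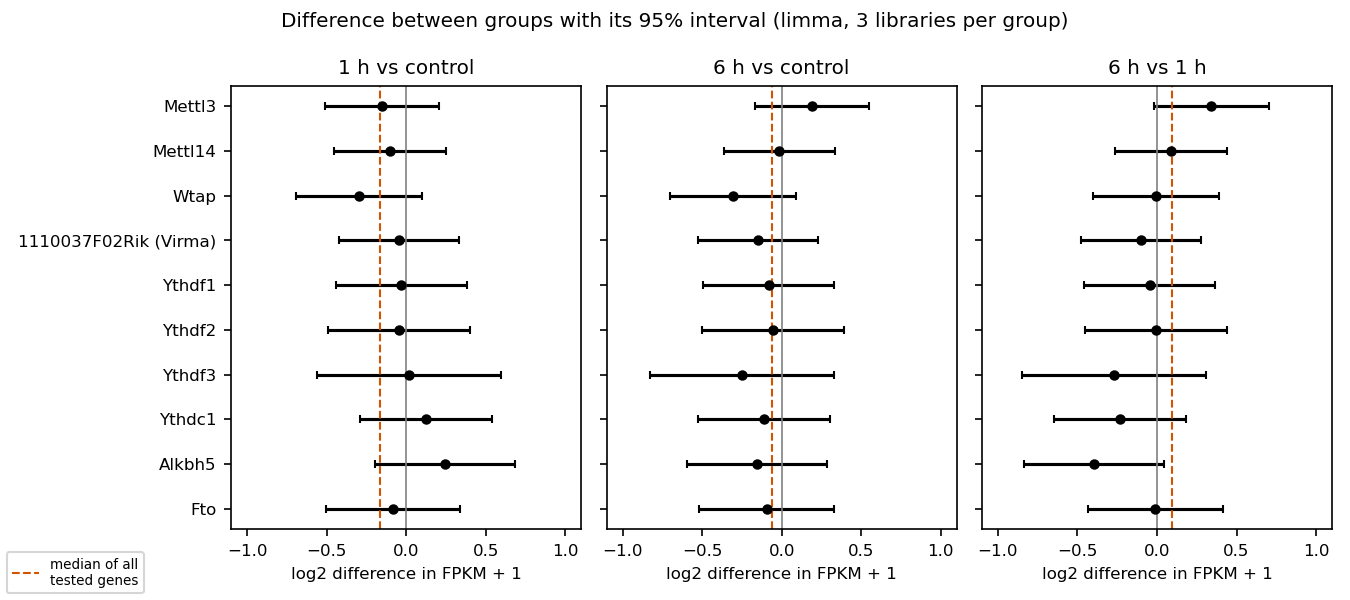
Difference in mean log2(FPKM + 1) between groups for each of the 10 m6A genes, with its 95% interval from limma. Panels show 1 h against control, 6 h against control and 6 h against 1 h. The dashed line is the median of all 11460 genes, which lies at -0.17 for 1 h against control. Every interval includes 0.

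At 1 h the typical gene had lower FPKM than in control cells, with a median log2 difference of -0.17 over all genes tested. The median of the 10 m6A genes was -0.05. Median-of-ratios scaling, which divides each library by a factor taken from all genes, brought the all-gene median to -0.01 and the m6A median to 0.12. Under that scaling 6 genes with a small negative difference turned to 0.00 to 0.14, namely Mettl3, Mettl14, 1110037F02Rik, Ythdf1, Ythdf2 and Fto. Differences of m6A genes from control at 1 h are therefore also given below relative to the all-gene median. Those of the wider pathway are given as they are. FPKM are shares of a library, so these values show neither the amount of RNA per cell nor the number of cells.

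Of the writers, Wtap had the largest difference from control. Its values were 27.42, 30.65 and 23.30 FPKM in control libraries, 22.61, 22.37 and 20.30 FPKM at 1 h, and 25.59, 17.01 and 23.21 FPKM at 6 h. All 3 libraries at 1 h lay below all 3 control libraries, the lowest control library being 23.30 FPKM, and the 6 h libraries overlapped the control range. The log2 difference was -0.30 at 1 h against control (SE 0.176, interval -0.69 to 0.10, limma adjusted p = 0.523). Relative to the all-gene median it was -0.13, and after scaling the groups overlapped. Wtap was the only m6A gene lower without overlap at 1 h, that is 1 of 10, where 21.4% of all genes were. After scaling the number was 0 of 10, where 6.99% of all genes were. The Wtap difference at 6 h against control was -0.30 (interval -0.70 to 0.09, limma adjusted p = 0.877), which became -0.14 without 6 h replicate 2 and -0.42 without 6 h replicate 1.

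Mettl3, the catalytic subunit, was higher in every 6 h library than in any 1 h library. It had 8.15, 9.67 and 9.93 FPKM in control libraries, 8.23, 8.70 and 7.67 FPKM at 1 h, and 12.94, 9.50 and 9.81 FPKM at 6 h. Both heated groups overlapped the control range. The log2 difference of 6 h against 1 h was 0.34 (SE 0.160, interval -0.02 to 0.70, limma unadjusted p = 0.0591, adjusted p = 0.4499). Without 6 h replicate 1 it was 0.21. Mettl3 was the 1 gene of 10 that was higher without overlap at 6 h than at 1 h, where 15.2% of all genes were. After scaling it was still higher without overlap, by 0.23, again 1 of 10, where 8.89% of all genes were. Tox4, whose exons it shares, had 15.65, 16.84 and 20.91 FPKM in control libraries, 19.28, 20.34 and 19.05 FPKM at 1 h, and 22.31, 15.06 and 17.92 FPKM at 6 h. The 6 h and 1 h values of Tox4 overlapped.

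A ratio of 2 genes within a library does not depend on how libraries are scaled; these ratios were examined after the values were seen. The ratio of Mettl3 to Alkbh5 was 0.363, 0.463 and 0.401 in control libraries, 0.323, 0.324 and 0.269 at 1 h, and 0.492, 0.645 and 0.460 at 6 h. It was thus lower in all libraries at 1 h than in any control library, and overlapped the control range at 6 h. The ratio of Mettl3 to another member was higher without overlap at 6 h than at 1 h for 6 of the other 9, while this was so of its ratio to 22.4% of all other tested genes. These ratios share the values of Mettl3 and are not independent. Over all 45 pairs of m6A genes the ratio did not overlap, in either direction, for 11 pairs at 1 h against control, beside 17.8% of pairs of all tested genes. At 6 h against control there were 2 pairs, beside 7.83%, and at 6 h against 1 h there were 15, beside 18.1%.

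Mettl14, the partner of METTL3, had 6.00, 5.88 and 6.71 FPKM in control libraries, 5.26, 6.76 and 5.20 FPKM at 1 h, and 6.46, 5.37 and 6.59 FPKM at 6 h. The highest and the lowest of its 9 values both fell in the 1 h group, and the highest was 1.30 times the lowest. Its log2 difference from control was -0.10 at 1 h (0.07 relative to the all-gene median) and -0.01 at 6 h, the second being 0.07 without 6 h replicate 2. The scaffold gene 1110037F02Rik had 9.68, 10.21 and 12.54 FPKM in control libraries, 10.76, 11.20 and 9.25 FPKM at 1 h, and 10.57, 7.91 and 10.52 FPKM at 6 h. All groups of both genes overlapped. The scaffold's differences from control were -0.05 at 1 h (0.12 relative to the all-gene median) and -0.15 at 6 h, the second being -0.03 without 6 h replicate 2.

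The cytoplasmic readers showed little difference at 1 h. Ythdf1, often described as a promoter of translation, had 21.51, 23.63 and 22.74 FPKM in control libraries, 21.25, 23.81 and 21.25 FPKM at 1 h, and 26.86, 15.91 and 22.66 FPKM at 6 h. Ythdf2, which recruits the CCR4-NOT deadenylase to methylated messages, had 13.33, 14.30 and 13.73 FPKM in control libraries, 12.22, 14.14 and 13.63 FPKM at 1 h, and 16.95, 9.33 and 14.58 FPKM at 6 h. Ythdf3, which works with both, had 18.78, 19.49 and 24.21 FPKM in control libraries, 19.15, 21.42 and 22.53 FPKM at 1 h, and 24.45, 10.77 and 19.34 FPKM at 6 h. In all 3 genes the 6 h group held both the highest and the lowest of the 9 values, and every pair of groups overlapped. The log2 differences at 1 h against control were -0.03 for Ythdf1, -0.05 for Ythdf2 and 0.02 for Ythdf3. Relative to the all-gene median they were 0.13, 0.12 and 0.19 for the same genes. Ythdf3 differed at 6 h against control by -0.25 (interval -0.83 to 0.33, limma adjusted p = 0.8866). That sign rested on 6 h replicate 2, without which the difference was 0.07, and without 6 h replicate 1 it was -0.49.

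Ythdc1, the nuclear reader that acts in splicing and export, was slightly higher at 1 h. It had 21.42, 21.39 and 19.89 FPKM in control libraries, 22.68, 23.64 and 22.18 FPKM at 1 h, and 25.40, 14.60 and 19.21 FPKM at 6 h. The 1 h libraries all lay above the control libraries, and the 6 h libraries lay on both sides of them. The log2 difference at 1 h was 0.12 (interval -0.29 to 0.54, limma adjusted p = 0.7649), and 0.29 relative to the all-gene median.

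Of the erasers, Alkbh5 had the largest positive difference at 1 h among the 10 genes. It had 22.46, 20.88 and 24.76 FPKM in control libraries, 25.50, 26.88 and 28.54 FPKM at 1 h, and 26.29, 14.73 and 21.32 FPKM at 6 h. The lowest library at 1 h was above the highest control library, and the 6 h libraries overlapped both other groups. The means were 27.0 ± 1.52 FPKM at 1 h and 22.7 ± 1.95 FPKM in control (SD, n = 3 each), a log2 difference of 0.24 (SE 0.196, interval -0.20 to 0.68, limma adjusted p = 0.6106). Relative to the all-gene median the difference was 0.41. Alkbh5 and Ythdc1 were the 2 of 10 that were higher without overlap at 1 h, where 4.49% of all genes were. After scaling there were 3 of 10, with Ythdf1 added, where 9.11% of all genes were.

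Alkbh5 had the lowest difference of the 10 at 6 h against 1 h, -0.40 (interval -0.84 to 0.04, limma unadjusted p = 0.07262, adjusted p = 0.4726). Without 6 h replicate 2 the Alkbh5 difference was -0.18, and Fto was then the lowest at -0.22. Without 6 h replicate 1 the Alkbh5 difference was -0.58. The groups overlapped in FPKM through 6 h replicate 1. After scaling they did not, and Alkbh5 was then the 1 gene of 10 that was lower without overlap, where 9.17% of all genes were. In FPKM as deposited the number was 0 of 10, where 4.97% of all genes were. Within libraries, Alkbh5 at 1 h was higher without overlap relative to 8 of the other 9 members, the exception being Ythdc1. The same was so relative to 45.9% of all other tested genes.

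Fto, the other eraser, had 19.37, 20.60 and 21.54 FPKM in control libraries, 21.13, 18.34 and 18.48 FPKM at 1 h, and 14.94, 25.73 and 18.13 FPKM at 6 h. All groups overlapped, and its log2 differences were -0.08 at 1 h against control (0.08 relative to the all-gene median) and -0.09 at 6 h against control. The 6 h value was 0.07 without 6 h replicate 1 and -0.30 without 6 h replicate 2. Its lowest and its highest value both lay in the 6 h group, but in the opposite libraries to the readers. No m6A gene was higher without overlap at 6 h than in control and none was lower (0 of 10 each), where 1.89% of all genes were higher and 5.32% lower.

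Most of the spread of these genes lay among the 6 h libraries. The median SD of log2(FPKM + 1) over the 10 genes was 0.103 in control libraries, 0.0962 at 1 h and 0.373 at 6 h. Over all tested genes it was 0.237 in control libraries, 0.147 at 1 h and 0.282 at 6 h. Replicate 2 at 6 h was below both other 6 h libraries for 9 of the 10 genes, as it was for 47.2% of all genes, and above both for Fto, as for 32.7% of all genes. Relative to the mean of the other 6 h libraries, Ythdf3 was at 0.492 of their FPKM in that library, Ythdf2 at 0.592, Alkbh5 at 0.619 and Fto at 1.56 times. The median log2 difference of that library from the other 6 h libraries was -0.53 for the m6A genes and -0.08 for all genes. It also held the lowest of all 9 values for 7 of the 10 genes, as it did for 26.4% of all genes. After scaling it held the lowest for 8, beside 25.9% of all genes. Replicate 1 at 6 h was above both others for 8 of the 10, as for 35.8% of all genes.

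The heat-shock genes Hsph1 and Hspa1a had the same order over the 6 h libraries, highest in replicate 1 and lowest in replicate 2. Hsph1, the HSP110 gene, had 289, 15.9 and 110 FPKM in replicates 1, 2 and 3, and Hspa1a had 49.3, 27.1 and 40.4 FPKM. Endothelial marker sums also had that order, at 58.3, 30.1 and 32.9 FPKM in 6 h replicates 1, 2 and 3. The sums of the other cell type markers were ordered otherwise. In replicates 1, 2 and 3 they were 3358, 3116 and 4608 FPKM for myoid markers and 497, 488 and 388 FPKM for Sertoli markers. Single markers could differ from their sum. The myoid markers Myh11 (35.9, 8.41 and 11.9 FPKM) and Des (58.3, 11.0 and 25.3 FPKM) had the order of Hsph1, as did the Sertoli marker Sox9. The myoid markers Acta2 (992, 1005 and 1536 FPKM) and Cnn1 (52.6, 18.4 and 86.3 FPKM) did not. Macrophage markers summed to 48.8, 30.5 and 81.5 FPKM in control libraries, 36.8, 172 and 239 FPKM at 1 h, and 249, 202 and 37.6 FPKM at 6 h. The part of these values in the spread of the m6A genes was not tested. The median m6A difference at 6 h against control was -0.10 over all libraries, 0.07 without 6 h replicate 2 and -0.23 without 6 h replicate 1.

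**Figure D3:**
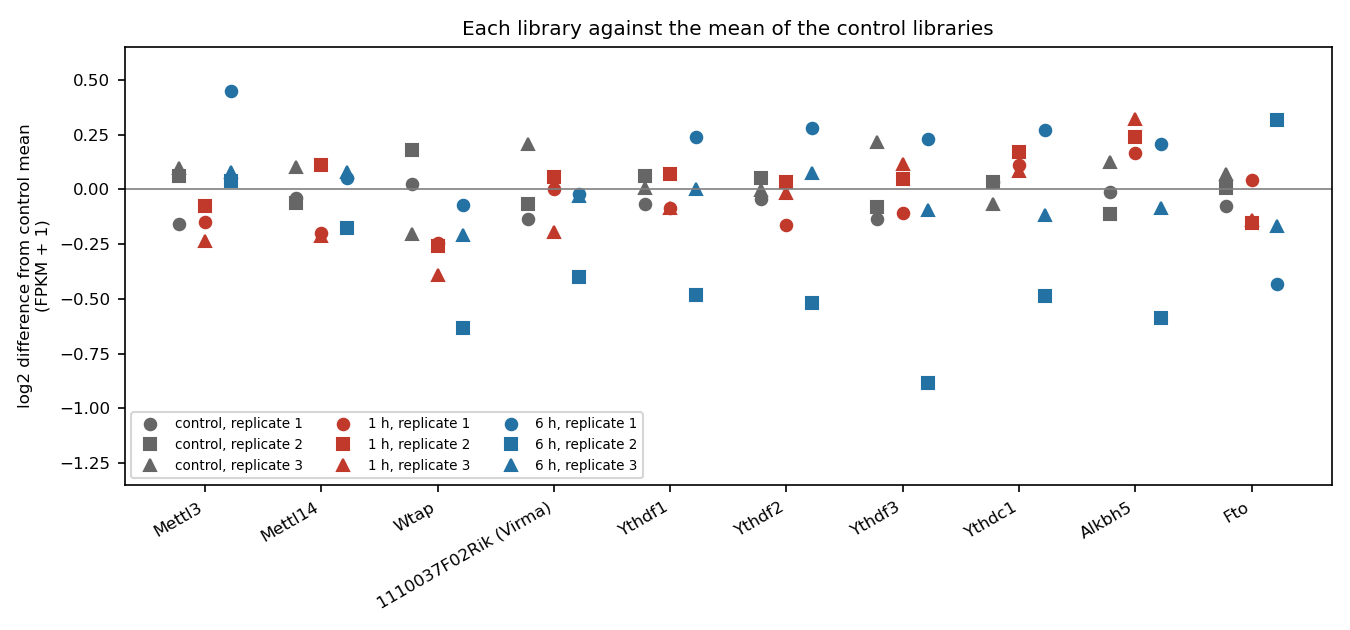
Log2(FPKM + 1) of each library minus the mean of the 3 control libraries, for each of the 10 m6A genes, with colour for the group and marker shape for the replicate number. Replicate 2 at 6 h (blue squares) lies lowest for 7 genes and highest for Fto, and replicate 1 at 6 h (blue circles) lies highest for 5 and lowest for Fto.

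Across the 9 libraries Fto correlated negatively with the rest. Fto was highest in 6 h replicate 2, where 7 of the others were lowest, and lowest in 6 h replicate 1, where 5 were highest. Its Pearson correlation with each of the other 9 genes was negative, from -0.905 with Ythdf2 to -0.37, with a median of -0.69. Among the other 36 pairs the median was 0.607 and 1 was negative. The closest pair was Ythdf1 and Ythdf2 at 0.974. Without 6 h replicate 2, over 8 libraries, the median with Fto was -0.398 and 7 of 9 were negative, the median of the other pairs was 0.339 and 8 were negative, and Ythdf1 with Ythdf2 was at 0.909. Correlations without 6 h replicate 1 and those of pairs of all genes were not examined. All values of a library share its scaling and depth, and the correlations are given as descriptions.

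Genes most like 3 of the members across the 9 libraries were taken from 8103 tested genes with a mean of at least 5 FPKM. For Mettl3 they were Cluap1 (Pearson r 0.976), Mrps2 (0.968) and Nop14 (0.958). For Ythdf2 they were Twistnb (0.984), Tfb2m (0.981) and Zfp326 (0.976), and for Fto they were Smpd1 (0.956), Hddc3 (0.951) and Obsl1 (0.944). Without 6 h replicate 2 these values were 0.907 to 0.986. Spearman correlations over the 9 libraries were 0.717 (Zfp326 with Ythdf2) to 1.0 (Tfb2m with Ythdf2). The genes were picked for a high Pearson r in these same libraries, so the values are descriptions and no check.

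No gene of the wider m6A pathway passed the test. Of 36 further genes in 4 lists, 35 were tested, and limma called 0 in each comparison. At an unadjusted p below 0.05 there were 3 of 35 at 1 h against control, where all genes had 2.76% higher and 8.05% lower. There were 0 of 35 at 6 h against control, and 4 of 35 at 6 h against 1 h, where all genes had 8.45% higher and 3.19% lower. Igf2bp1 did not reach the level for testing.

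In the writer complex, the zinc-finger subunit gene Zc3h13 had 7.84, 6.99 and 10.79 FPKM in control libraries, 7.61, 6.75 and 6.47 FPKM at 1 h, and 11.18, 7.35 and 8.48 FPKM at 6 h. Cbll1, which encodes HAKAI, had 4.86, 4.93 and 7.69 FPKM in control libraries, 4.61, 5.01 and 4.93 FPKM at 1 h, and 6.58, 4.21 and 6.38 FPKM at 6 h. Both were highest in control replicate 3 or 6 h replicate 1, and their groups overlapped. Rbm15, an adaptor that brings the complex to its RNAs, had 3.05, 3.87 and 3.05 FPKM in control libraries, 3.61, 6.00 and 4.21 FPKM at 1 h, and 3.30, 1.43 and 2.98 FPKM at 6 h. Its 6 h libraries all lay below its 1 h libraries, as for 4.97% of all genes. The log2 difference of Rbm15 was -0.67 (limma unadjusted p = 0.024, adjusted p = 0.3526), or -0.42 without 6 h replicate 2. Its paralog Rbm15b overlapped in all groups, with differences of 0.09 at 1 h against control and -0.07 at 6 h against control.

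Among the other methyltransferases and cofactors, Mettl16, which methylates U6 RNA and the Mat2a message, differed by -0.19 at 1 h against control and 0.24 at 6 h against 1 h. Mat2a, which makes the methyl donor S-adenosylmethionine, had 61.5, 68.4 and 104 FPKM in control libraries, 83.7, 70.5 and 83.5 FPKM at 1 h, and 122, 44.9 and 70.2 FPKM at 6 h. It overlapped in all groups. Mat2b, its regulatory subunit, had 27.7, 28.1 and 23.9 FPKM at 1 h, against 37.4, 33.1 and 36.6 FPKM in control libraries. The groups did not overlap, while 21.4% of all genes were lower without overlap at 1 h. The log2 difference of Mat2b was -0.41 (limma unadjusted p = 0.01592, adjusted p = 0.3921), beside an all-gene median of -0.17.

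Of the other reported readers, Igf2bp2 had the largest positive difference at 1 h against control. It had 9.05, 10.54 and 10.87 FPKM in control libraries, 17.24, 15.99 and 13.80 FPKM at 1 h, and 13.29, 15.32 and 7.98 FPKM at 6 h. All 1 h libraries lay above all control libraries, a log2 difference of 0.58 (interval 0.08 to 1.07, limma unadjusted p = 0.02663, adjusted p = 0.4264). It was the only 1 of the 35 that was higher without overlap at 1 h, while 9 were lower without overlap, beside 4.49% and 21.4% of all genes. Ythdc2, a helicase with a YTH domain that germ cells need for meiosis, was low, at 2.17 ± 0.409 FPKM in control libraries and 1.92 ± 0.208 FPKM at 1 h (SD, n = 3), and between 0.88 and 1.83 FPKM at 6 h. It differed by -0.11 at 1 h and -0.36 at 6 h against control.

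Among the effectors of the readers, the CCR4-NOT scaffold gene Cnot1 differed by -0.42 at 1 h against control and -0.52 at 6 h against control (limma adjusted p = 0.5311 and 0.877), and both heated groups overlapped the control range. Without 1 h replicate 3 the Cnot1 difference at 1 h was -0.25, and without 6 h replicate 2 that at 6 h was -0.27. Cnot3, another subunit, had 23.21, 20.30 and 22.85 FPKM in control libraries, 18.61, 17.47 and 16.84 FPKM at 1 h, and 26.14, 26.36 and 23.28 FPKM at 6 h. The 1 h libraries lay below both other groups, and the lowest 6 h library lay just above the highest control library. Among all genes 21.4% were lower without overlap at 1 h than in control. The shares higher without overlap at 6 h were 1.89% against control and 15.2% against 1 h. The Cnot3 log2 difference was -0.31 at 1 h against control (limma unadjusted p = 0.03615, adjusted p = 0.4414), 0.18 at 6 h against control (adjusted p = 0.877) and 0.49 at 6 h against 1 h (unadjusted p = 0.003368, adjusted p = 0.1865). The list medians at 1 h against control were -0.06 for the writer partners, -0.17 for the other methyltransferases and cofactors, -0.04 for the other readers and -0.26 for the effectors. The all-gene median was -0.17.

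**Figure D4:**
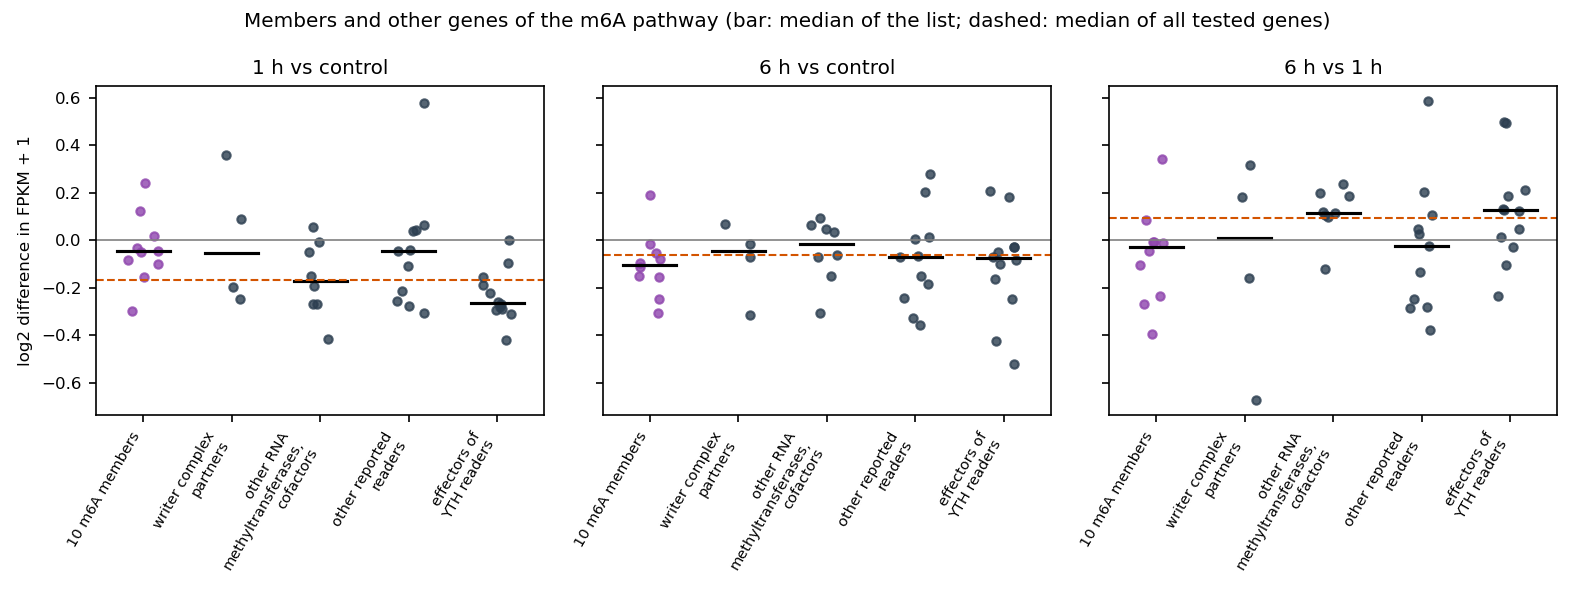
Log2 difference in FPKM + 1 for the 10 m6A genes and for 35 other tested genes of the pathway in 4 lists, for 1 h against control, 6 h against control and 6 h against 1 h. Points are genes, bars list medians and the dashed line the median of all tested genes. The highest point at 1 h against control is Igf2bp2 at 0.58, and the lowest at 6 h against 1 h is Rbm15 at -0.67.

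The authors' deposited table also holds fold changes and tests from DEGseq. In that part of the authors' deposited table the q-value was below 0.05 for 6 of the 10 genes at 1 h over control, where it was for 71.8% of all genes with a q-value. It was for 6 at 6 h over control, where 62.0% of all genes were, and for 5 at 6 h over 1 h, where 65.5% were, so the shares of the m6A genes were not above those of all genes in the authors' deposited table. Wtap had in the authors' deposited table a log2 fold change of -0.316 at 1 h over control with a q-value of 3.9e-20, and Alkbh5 one of 0.249 with a q-value of 3.7e-29. The largest in the authors' deposited table was 0.388, for Mettl3 at 6 h over 1 h. None of the 10 reached a 2-fold change with a q-value of at most 0.001 in the authors' deposited table.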

How the data were processed

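RNA was measured in 9 libraries in 3 groups. The authors deposited 1 gene table. Its FPKM per library, transcript lengths, log2 fold changes, p-values and q-values (DEGseq), and a cluster membership not used here are named per the file headers. HISAT2 2.0.4, Bowtie2 2.2.5, RSEM 1.2.12 and mm10 are named per the submitters' processing notes, with no role given. Not given in the sources used here are the annotation, library kit, strand setting and read length. Reads matching several transcripts may have been divided among them, and log2(FPKM + 1) understates changes of low genes.

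Group means were compared on log2(FPKM + 1) with limma 3.58.1 (R 4.3.3), fitted to all 9 libraries and to the 11460 genes that reached 1 FPKM in 3 or more of them. It was two-sided with a variance trend, 6 residual degrees of freedom before moderation and Benjamini-Hochberg adjustment, and was tested on simulated data. An adjusted p under 0.05 counted as a call. Groups do not overlap where every library of 1 group exceeds every library of the other. Depth was estimated from the steps between low FPKM values, where 88.7% to 93.3% lay within 0.2 of a whole read. Since whole reads could not be recovered throughout, counts were not tested.

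Same-numbered libraries deviated together weakly for 1 h and control (correlations 0.194, 0.149 and 0.262). Libraries with different numbers in these groups correlated at -0.284 to 0.171, so these values do not establish that the numbers pair libraries. Same-numbered libraries did not deviate together for 6 h and control (-0.178, 0.041 and 0.014) or for 6 h and 1 h (-0.269, -0.104 and -0.35). Libraries with different numbers correlated at -0.156 to 0.193 for 6 h and control. For 6 h and 1 h they correlated at -0.096 to 0.346, the highest being 6 h replicate 1 with 1 h replicate 3. The text names all 10 members, 9 preset pathway genes, any pathway gene called, 3 heat genes and the 3 genes most like Mettl3, Ythdf2 and Fto. Mat2b, Cnot3 and Tox4 were added after their values were seen. The members and lists were chosen with earlier results of these data known. Alternatives were a pseudocount of 0.1, no filter, median-of-ratios scaling, quantile normalization, only the 2 groups compared, a replicate block, each library left out, and control replicate 3 with 6 h replicate 2 left out.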

Additional observations from a re-analysis of the deposited data

How the results depend on the processing

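limma called 0 of 10 m6A genes in each comparison under all 16 alternatives, and the smallest adjusted p was 0.1824. The replicate block matched same-numbered libraries across all 3 groups, so it was not a paired comparison of 1 h and control alone. With the block, the m6A genes called stayed at 0. Genes called overall at 1 h against control numbered 15, against 18 without the block. At 6 h against 1 h, where same-numbered libraries did not deviate together, the block gave 23 against 32. Of 480 recomputed m6A differences 424 kept their sign and 56 reversed. Many of those kept could not change. The estimate is the same by design with no filter, with only the compared groups and with the replicate block. Leaving out a library of the group not compared does not change it either. At 1 h against control, median-of-ratios scaling reversed Mettl3 (0.004982), Mettl14 (0.0499), 1110037F02Rik (0.114), Ythdf1 (0.1354), Ythdf2 (0.1171) and Fto (0.0843), and quantile normalization reversed the same genes (0.0042, 0.0574, 0.1056, 0.1171, 0.1171 and 0.0698). Mettl14 reversed at 6 h against control under both (0.0285 and 0.0863) and Ythdf2 under quantile normalization (0.0384). It reversed under median-of-ratios scaling at 6 h against 1 h too (-0.0214). Leaving out control replicate 3 and 6 h replicate 2 together reversed 1110037F02Rik at 1 h against control (0.0556). For 6 h against control it reversed Mettl14 (0.1168), 1110037F02Rik (0.0774), Ythdf1 (0.1248), Ythdf2 (0.1756), Ythdf3 (0.1765), Ythdc1 (0.044) and Alkbh5 (0.1234). For 6 h against 1 h it reversed Wtap (0.1583), 1110037F02Rik (0.0218), Ythdf1 (0.1541), Ythdf2 (0.2252) and Ythdf3 (0.0493). With single libraries left out, the ranges that crossed 0 at 1 h against control were -0.0478 to 0.1272 for Ythdf3, -0.1155 to 0.0556 for 1110037F02Rik and -0.088 to 0.0099 for Ythdf2. Those at 6 h against control were -0.0603 to 0.0661 for Mettl14, -0.2393 to 0.1209 for Ythdf1, -0.2205 to 0.1781 for Ythdf2, -0.4879 to 0.0683 for Ythdf3, -0.3018 to 0.0777 for Ythdc1, -0.3357 to 0.0617 for Alkbh5 and -0.2991 to 0.0738 for Fto. Those at 6 h against 1 h were -0.1228 to 0.1583 for Wtap, -0.1777 to 0.0218 for 1110037F02Rik, -0.206 to 0.1541 for Ythdf1, -0.1734 to 0.2252 for Ythdf2, -0.507 to 0.0493 for Ythdf3 and -0.2156 to 0.1573 for Fto. Genes called overall at 1 h against control numbered 10 with no filter, 31 with quantile normalization, 47 with only the compared groups, and 8 to 52 with single libraries left out, the highest without 6 h replicate 2. The number at 6 h against control was 0 (0 under every other alternative), and 25 without 6 h replicate 1. The number at 6 h against 1 h was 32, 55 with quantile normalization, and 8 to 104 with single libraries left out, the highest without 6 h replicate 1. The cause of these shifts was not tested. With 3 libraries a group, small differences were not detectable. The intervals given are no detection limit, because larger differences also went uncalled. Hspa1a at 6 h against control was such a case, at 1.88 (limma adjusted p = 0.5213).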

Other observations

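Both pairs of m6A genes whose within-library ratio did not overlap between 6 h and control involved Mettl3. The ratio of Mettl3 to Ythdf3, the catalytic writer to a cytoplasmic reader, was 0.529, 0.882 and 0.507 at 6 h, against 0.434, 0.496 and 0.410 in control libraries. The ratio of Mettl3 to Ythdc1 was 0.509, 0.651 and 0.511 at 6 h, against 0.381, 0.452 and 0.499 in control libraries. The ratio of Wtap to Ythdc1 was 0.997, 0.946 and 0.915 at 1 h, against 1.28, 1.43 and 1.17 in control libraries. These pairs share members and were examined after the values were seen, so the values are descriptions.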
